A study of Homo sapiens with 4 samples.

Results

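The genes described here are 8 non-clustered protocadherins, PCDH1, PCDH7, PCDH8, PCDH9, PCDH10, PCDH17, PCDH18 and PCDH19. They were chosen by symbol, and all 8 were found among the 60708 genes of the count table. The libraries were made by TT-seq, in which RNA made during a short pulse of 4-thiouridine, here 20 min, is purified and sequenced, so that reads from introns are abundant. The cells were HEK293, a human line derived from embryonic kidney, with the genotype RPB1 degron. In these cells auxin triggers the destruction of endogenous RPB1, the largest subunit of RNA polymerase II (Pol II). Every culture of both groups was transiently transfected with an RPB1 plasmid and, after 48 h, received auxin for another 48 h. In the WT group the plasmid carried the wild-type C-terminal domain (CTD) with 52 repeats, and in the T4A group the fourth residue, threonine, was changed to alanine in every repeat. There were 2 libraries per group. The labels do not give a library without auxin or without a plasmid, the share of cells that took up a plasmid, or whether the 2 replicates were separate transfections, so p-values measure only the spread between these libraries, which may be technical.

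Protocadherins are cadherin-related transmembrane proteins that mediate weak adhesion between cells, mostly between cells that carry the same member. Unlike the clustered protocadherins, which lie in arrays and some of which share constant exons, the non-clustered members are single genes scattered over the genome. They are best known from the developing nervous system, where they act in axon growth, cell sorting and synapse formation. PCDH1, PCDH7 and PCDH9 belong to the δ1 branch, as does PCDH11X, and PCDH8, PCDH10, PCDH17, PCDH18 and PCDH19 to the δ2 branch, and the branches differ in their extracellular repeats and cytoplasmic motifs. Several members bind the WAVE complex, which drives branching of actin filaments.

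In GRCh38, the build that the submitters' processing notes name, 3 members lie on chromosome 4 and 3 on chromosome 13. PCDH9 spans 928 kb at chr13:66302834-67230445 on the minus strand, and 99.4% of the 15329 protein-coding genes tested were shorter. PCDH7 spans 426 kb at chr4:30720415-31146805 on the plus strand. PCDH19 spans 119 kb at chrX:100291644-100410273 (minus strand), PCDH17 spans 97.6 kb at chr13:57631744-57729311 (plus strand), and PCDH10 spans 59.3 kb at chr4:133149294-133208606 (plus strand). The short members are PCDH1 with 26.2 kb at chr5:141853090-141879246, PCDH18 with 13.6 kb at chr4:137518918-137532494 and PCDH8 with 5.75 kb at chr13:52842889-52848641, all on the minus strand. Exons cover 3.03% of PCDH7 and 3.34% of PCDH9 but 49.2% of PCDH18 and 89.5% of PCDH8, so nearly all of the counted span is intron in the longest members and exon in PCDH8.

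A promoter window, 250 bases before and 50 after a RefSeq start in GRCh38.p14, was found for 7 of the 8 members. For each member the first listed window was used. That of PCDH1, at chr5:141869578-141869877 (minus strand), lies inside the gene and not at its outer start. That of PCDH17, at chr13:57631494-57631793 (plus strand), lies inside the RefSeq span, which begins at 57630108. The 250 bases before the start are shown for PCDH7, which stood lower in T4A, and for PCDH9 and PCDH19, which stood higher. Capitals mark the letters CCAAT and GGGCGG, searched on both strands, so that they also appear as ATTGG and CCCGCC. The windows lie at chr4:30720119-30720368 (plus strand) for PCDH7, at chr13:67230337-67230586 (minus strand) for PCDH9 and at chrX:100410274-100410523 (minus strand) for PCDH19.
PCDH7: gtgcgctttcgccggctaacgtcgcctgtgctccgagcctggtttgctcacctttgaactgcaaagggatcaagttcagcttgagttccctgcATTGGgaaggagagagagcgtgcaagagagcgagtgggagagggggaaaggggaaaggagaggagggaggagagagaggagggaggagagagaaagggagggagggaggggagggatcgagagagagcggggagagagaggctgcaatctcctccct
PCDH9: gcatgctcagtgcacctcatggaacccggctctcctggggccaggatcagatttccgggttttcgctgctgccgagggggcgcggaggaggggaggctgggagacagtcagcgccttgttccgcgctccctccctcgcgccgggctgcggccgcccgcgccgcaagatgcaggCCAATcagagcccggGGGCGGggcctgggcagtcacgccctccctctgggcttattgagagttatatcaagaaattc
PCDH19: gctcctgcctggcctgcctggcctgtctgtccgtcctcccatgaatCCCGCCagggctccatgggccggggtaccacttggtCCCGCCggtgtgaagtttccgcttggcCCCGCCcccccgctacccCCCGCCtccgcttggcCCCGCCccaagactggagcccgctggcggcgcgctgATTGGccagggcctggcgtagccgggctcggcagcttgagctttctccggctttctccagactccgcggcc

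Within its 300-base window PCDH7 had 16 CpG dinucleotides, a CCAAT match and no GGGCGG match, and its right part is a long purine-rich run. PCDH9 had 20 CpG dinucleotides with 1 match of CCAAT and 1 of GGGCGG, and PCDH19 had 26 CpG dinucleotides with 1 match of CCAAT and 5 of GGGCGG. The letters CCAAT were found in 6 of the 7 member windows and in 34.6% of the 35116 RefSeq windows of the same length. GGGCGG was found in 5 of 7 and in 45.1% of all windows. TATAAA was found in that of PCDH8 alone, against 11.5% of all windows. The G and C content of the member windows ranged from 52.7% for PCDH17 to 71.0% for PCDH19, against a median of 58.7% over all windows. These matches are descriptions of letters, and binding was not measured here.

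The libraries held 33188536 to 45605027 counts, and at least 1 count was listed for 31993 to 33850 genes. T4A replicate 1 stood somewhat apart. Its Pearson correlation of log2 CPM (counts scaled to the size of a library) was 0.988 and 0.989 with the WT libraries, against 0.995 for T4A replicate 2. The 2 T4A libraries correlated at 0.990, so T4A replicate 2 was closer to both WT libraries than to its own replicate. The WT libraries correlated at 0.997. Of the HEK293 markers, VIM, KRT8, KRT18, PAX2, LHX1 and NEFL passed the filter on low counts, and NEFM, a neurofilament gene, had 0 to 6 counts. The summed CPM of the markers was 222 and 229 in WT and 188 and 240 in T4A. Of 7 markers of other cell types, 6 were matched by symbol in the count table. Their summed CPM was 10.8 and 10.2 in WT and 14.7 and 13.0 in T4A, most of it from RBFOX3, a neuronal splicing factor gene. POLR2A, which encodes RPB1, had 377312 and 384353 counts in WT and 251502 and 279478 in T4A (log2 fold change −0.24, edgeR adjusted p = 0.659). These counts cannot tell the plasmid from the endogenous gene, so they do not check the labels.

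Levels between genes are compared per length, as CPM scaled by TMM (an adjustment for library composition) and divided by the gene's listed length in kb, averaged over the 4 libraries. PCDH10, which guides axon growth and synapse removal, had the highest level at 1.73 CPM per kb (1.45 to 1.92 over the libraries), above 75.2% of the protein-coding genes tested. PCDH18, a δ2 member that binds the adaptor DAB1, followed at 0.434 (0.327 to 0.527). PCDH7 at 0.250 (0.216 to 0.305) and PCDH19 at 0.230 (0.180 to 0.295) came next, and their ranges overlapped. PCDH9 at 0.144 (0.109 to 0.177) and PCDH8 at 0.113 (0.0789 to 0.171) also overlapped. PCDH1, known from epithelia, stood at 0.0538 (0.0478 to 0.0641). PCDH17, known from presynaptic assembly, stood at 0.00305 (0.000593 to 0.00550), with only 0.894% of protein-coding genes below it. Between all other neighbours in this order the library ranges did not overlap.

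The 398 olfactory receptor genes, which are silent in most tissues, gave a measure of reads from genes not expected to be active. This yardstick was chosen after the members' values were seen. Their summed density was 0.00544 and 0.00488 CPM per kb in WT and 0.00843 and 0.00579 in T4A, highest in T4A replicate 1. PCDH10 lay 225 to 336 times above this density, PCDH9 20.0 to 28.2 times and PCDH1 5.67 to 11.1 times. PCDH17 lay below it in every library, at 0.102 to 0.866 of the density, so its level could not be told from that of silent genes.

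**Figure D1:**
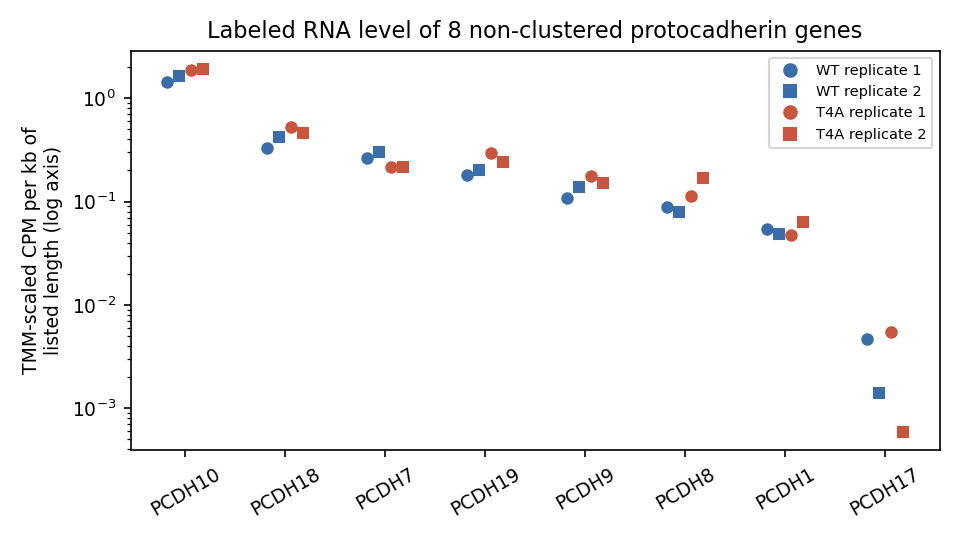
Level of each member in each library, as TMM-scaled CPM per kb of listed length on a log axis, with members ordered by their mean. Blue points are WT and red points are T4A, circles are replicate 1 and squares replicate 2. PCDH10 is highest at 1.45 to 1.92, PCDH17 is lowest at 0.000593 to 0.00550, and for PCDH7 both red points lie below both blue points.

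In raw counts PCDH7, PCDH9, PCDH10 and PCDH19 held 97.7% to 98.1% of all member counts. Together the members made up 0.0326% to 0.0410% of a library. Their summed CPM was 327 and 386 in WT and 413 and 385 in T4A, so the groups overlapped. In these bulk libraries fewer cells that express a gene and less labeled RNA per cell cannot be told apart.

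T4A was then compared with WT for every member in a single edgeR quasi-likelihood fit over all 23321 genes that passed the filter on low counts, with p-values adjusted over all of them. A gene was called at an adjusted p below 0.05 and a fold above 1.5, and 1 gene, or 0.00429%, was called. All 8 members were tested and none was called, with adjusted p from 0.204 to 0.998. At an unadjusted p below 0.05, 3 members (PCDH9, PCDH10 and PCDH19) were higher in T4A, against 7.45% of all genes, and 1 (PCDH7) was lower, against 8.02%. Both T4A libraries lay above both WT libraries for 5 of the 8 members, against 24.8% of all genes tested, and below them for 1, against 24.7%. The median log2 fold change of T4A over WT was 0.36 over the members and −0.00076 over all genes tested. Without T4A replicate 1, the library that stood apart, 195 genes (0.794%) and no member were called and the members' median was 0.32. There PCDH7 was at −0.39, PCDH9 at 0.31, PCDH10 at 0.33, PCDH19 at 0.35 and PCDH18 at 0.32 on the log2 scale. Without WT replicate 1 the members' median was 0.24. PCDH9 was then at 0.25 with a 95% interval of −0.062 to 0.56, PCDH10 at 0.21 (−0.077 to 0.50) and PCDH18 at 0.23 (−0.38 to 0.84), so that all 3 intervals included 0. PCDH7 was at −0.51 and PCDH19 at 0.40, with intervals of −0.79 to −0.23 and 0.0055 to 0.79. Whenever a library is left out its group holds a lone library, which is assumed to vary like the 2 libraries of the other group.

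PCDH7, a δ1 member that binds protein phosphatase PP1α and SET, was the one member that stood lower in T4A. It had 4372 and 5737 counts in WT and 3093 and 3187 in T4A. Its TMM-scaled CPM was 112 and 130 in WT (121 ± 13.0, SD, n = 2) and 92.1 and 92.2 in T4A (92.2 ± 0.0245, SD, n = 2). The groups did not overlap, and both T4A libraries had nearly the same value. The log2 fold change was −0.39 ± 0.099 (SE, 95% interval −0.62 to −0.17), with an edgeR adjusted p of 0.204. Of the genes tested, 9.94% had a lower log2 fold change.

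PCDH9, the longest member and one expressed widely in neurons, had 3952 and 5624 counts in WT and 5508 and 4887 in T4A. Its CPM was 101 and 128 in WT (114 ± 18.8, SD, n = 2) and 164 and 141 in T4A (153 ± 16.1, SD, n = 2). The T4A libraries were both above the WT libraries, and the gap between them was smaller than the distance between the WT libraries. Its log2 fold change was 0.42 ± 0.13 (SE, 95% interval 0.13 to 0.71), with an edgeR adjusted p of 0.239.

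PCDH10 had 3365 and 4277 counts in WT and 3770 and 3946 in T4A. Its CPM was 86.0 and 97.0 in WT (91.5 ± 7.82, SD, n = 2) and 112 and 114 in T4A (113 ± 1.29, SD, n = 2). The T4A libraries were close to each other and above both WT libraries. The log2 fold change was 0.31 ± 0.093 (SE, 95% interval 0.094 to 0.52), with an edgeR adjusted p of 0.237.

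PCDH19, an X-linked gene whose mutations cause an epilepsy that mostly affects females, had 838 and 1056 counts in WT and 1173 and 996 in T4A. Its CPM was 21.4 and 24.0 in WT (22.7 ± 1.80, SD, n = 2) and 34.9 and 28.8 in T4A (31.9 ± 4.34, SD, n = 2). Both T4A libraries were higher, replicate 1 the more so. The log2 fold change was 0.49 ± 0.13 (SE, 95% interval 0.18 to 0.80), with an edgeR adjusted p of 0.218. Without T4A replicate 2 PCDH19 was the single member called, with a log2 fold change of 0.61 and an edgeR adjusted p of 0.000504, in a fit that called 2500 genes (9.96%) in place of 1. In that fit an edgeR adjusted p below 0.05, whatever the fold, was found for 13.8% of all genes, and also for PCDH9 (0.000373) and PCDH7 (0.0108).

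PCDH18 had 174 and 250 counts in WT and 240 and 218 in T4A. Its CPM was 4.45 and 5.67 in WT and 7.15 and 6.31 in T4A, with the T4A libraries higher. Its log2 fold change was 0.41 ± 0.20 (SE, 95% interval −0.054 to 0.87), and the interval included 0. PCDH8, whose product acts in early mesoderm and at synapses, had only 20 and 20 counts in WT and 22 and 34 in T4A. Its log2 fold change of 0.76 was the highest among the members, with a wide 95% interval of −0.27 to 1.80. For PCDH1, with 56 and 56 counts in WT and 42 and 58 in T4A, the groups overlapped and the 95% interval ran from −0.62 to 0.86. PCDH17 had 18 and 6 counts in WT and 18 and 2 in T4A, and its 95% interval from −2.11 to 2.12 held changes of more than 4-fold either way. No difference was detected in these low members, and the intervals give the sizes that their counts allow.

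**Figure D2:**
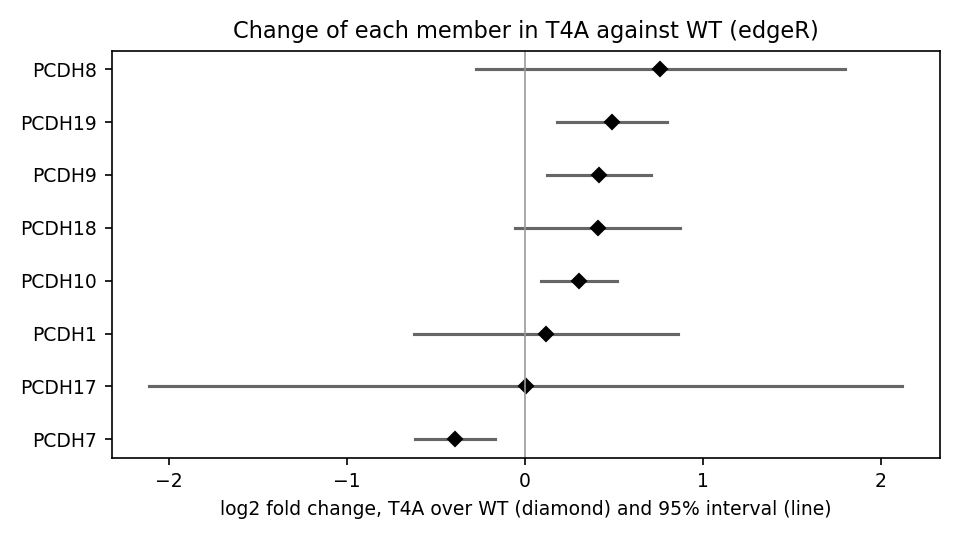
Log2 fold change of T4A over WT (diamonds) with its 95% interval (lines) for each member, from the edgeR fit over all genes. The interval lies below 0 for PCDH7 and above 0 for PCDH9, PCDH10 and PCDH19, before adjustment for the number of genes, and spans 0 for PCDH1, PCDH8, PCDH17 and PCDH18.

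DESeq2 gave an adjusted p to 11113 genes and to the 4 members with the most counts. Without a limit on the fold, 913 genes, or 8.22%, had a DESeq2 adjusted p below 0.05. All 4 of these members were among them, with an adjusted p of 0.0125 for PCDH7, 0.0302 for PCDH9, 0.0425 for PCDH10 and 0.0299 for PCDH19. None reached a fold of 1.5. PCDH1, PCDH8, PCDH17 and PCDH18 were given no adjusted p by DESeq2.

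The ratio of a pair of members within a library does not depend on how libraries are scaled. The pairs were chosen after the members' values were seen, so their ratios are descriptions, and an exact permutation test of 2 against 2 libraries cannot go below p = 0.333. The ratio of PCDH9 to PCDH7 counts was 0.904 and 0.980 in WT and 1.78 and 1.53 in T4A, a mean 1.76 times higher in T4A. PCDH9 was thus slightly below PCDH7 in both WT libraries and above it in both T4A libraries. The ratio of PCDH10 to PCDH7 was 0.770 and 0.746 in WT and 1.22 and 1.24 in T4A, with hardly any spread within a group. Relative to PCDH7, the mean was also higher in T4A for PCDH19, by 1.84 times, and for PCDH18, by 1.75 times. By contrast the ratio of PCDH9 to PCDH10, at 1.17 and 1.31 in WT and 1.46 and 1.24 in T4A, overlapped between the groups. The ratio of PCDH19 to PCDH9 lay between 0.188 and 0.213 in all 4 libraries.

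**Figure D3:**
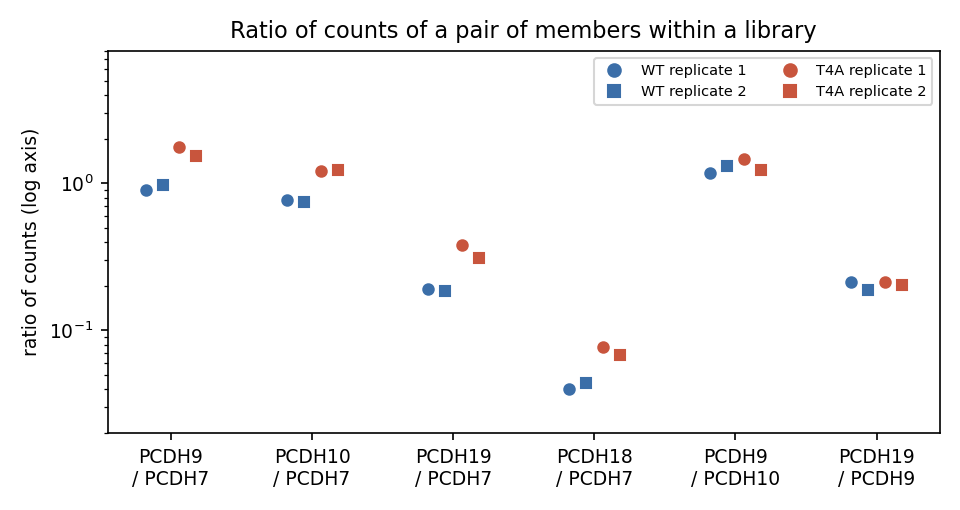
Ratio of the counts of a pair of members within each library, on a log axis, with WT in blue and T4A in red, circles for replicate 1 and squares for replicate 2. All 4 ratios over PCDH7 are higher in both T4A libraries, while PCDH9 over PCDH10 and PCDH19 over PCDH9 overlap.

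The members were set beside genes of like length, since the median change differed with length over the table. The 3488 protein-coding genes of 100 kb or more had a median log2 fold change of −0.089, and at an unadjusted p below 0.05, 735 were lower in T4A and 264 higher. PCDH9 lay on the other side of 0 from the median of long genes, while PCDH7 lay on the same side and further out. Of the 674 protein-coding genes within 1.5 times the length of PCDH7, 6.53% had a lower log2 fold change than PCDH7. Of the 181 within 1.5 times the length of PCDH9, 64.1% had a lower one and 65 had a higher one. PCDH10 and PCDH19 stood above 85.9% and 91.1% of the 3571 and 2652 genes of like length. The part of length in the members' differences was not tested.

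The genes around both of the longest members were also listed, within 5 Mb on either side, a window chosen after the values were seen. All 17 tested genes near PCDH7 had a higher log2 fold change than PCDH7, with a median of 0.17, but 11 of them were lncRNA genes and the median over the 17 genes was 39.2 counts. The 6 protein-coding genes lay between −0.35 and 0.01. Of these TBC1D19 was at −0.35, with 3149 and 4188 counts in WT and 2467 and 2207 in T4A, and SEL1L3 at −0.31, with 2116 and 2476 in WT and 1512 and 1521 in T4A, both close to the −0.39 of PCDH7. Near PCDH9, 10 genes were tested, with a median log2 fold change of 1.41, and 9 of them lay above PCDH9. Over all genes tested, 82.8% lay below PCDH9. Each of those 9 had more counts in T4A replicate 1, the library that stood apart, than in T4A replicate 2. The 10 genes were mostly weak, with a median over genes of 15.5 counts, and 8 were lncRNA genes. KLHL1, a brain-expressed actin-binding gene, had 28 and 38 counts in WT and 90 and 44 in T4A (log2 fold change 1.32, edgeR adjusted p = 0.246). DACH1, a strongly transcribed gene for a nuclear factor, was on the other side at −0.32 (edgeR adjusted p = 0.245).

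The olfactory receptor density was higher in both T4A libraries than in WT. With that density subtracted from each library, the mean log2 difference was 0.42 for PCDH9, 0.31 for PCDH10 and 0.49 for PCDH19, the same to 2 decimals as without the subtraction. That of PCDH7 moved from −0.39 to −0.41, and that of PCDH1 from 0.10 to 0.047. Whether this density equals the members' own background was not tested. Genes that overlap a member were few and had low counts. How reads over overlapping genes were assigned is not given, so these low counts are uncertain. PCDH7 has an lncRNA gene, ENSG00000286596, on its other strand with 71 and 50 counts in WT and 37 and 45 in T4A, and PCDH9-AS2, on the other strand of PCDH9, had at most 18 counts.

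Other cadherin-related genes were described from lists. None of their genes was called. Of the other non-clustered protocadherins PCDH11X, PCDH12, PCDH15 and PCDH20, the first 3 were tested. PCDH15, a gene of the hair-cell tip link, had 739 and 812 counts in WT and 683 and 560 in T4A, with a log2 fold change of −0.03. PCDH11X had 75 and 84 counts in WT and 171 and 66 in T4A, so that its log2 fold change of 0.87 rested on T4A replicate 1. Its mean level of 0.00321 CPM per kb lay below the olfactory receptor density of every library, so it could not be told from that of silent genes. PCDH12 had 20 and 18 counts in WT and 26 and 18 in T4A. Of the 53 clustered protocadherins 37 were at 0 in all 4 libraries and 11 were tested, with a median log2 fold change of 0.04. That median rested on single libraries, at −0.64 when T4A replicate 2 was left out, −0.057 when WT replicate 1 was and 0.20 when T4A replicate 1 was. Many of these genes overlap others on their own strand, and how reads over overlapping genes were assigned is not given in the sources used here, so a 0 there is uncertain. PCDHB2, a gene with a single exon and the most counts among them, had 351 and 390 counts in WT and 273 and 350 in T4A (log2 fold change 0.04).

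All 18 classical cadherins were tested, with a median log2 fold change of 0.40, which was 0.21 and 0.73 when T4A replicates 1 and 2 were left out in turn, and 0.63 and 0.26 when WT replicates 1 and 2 were. CDH6, CDH7, CDH9, CDH10, CDH11, CDH12, CDH18 and CDH19 averaged 0.00259 to 0.00385 CPM per kb, below the olfactory receptor density of every library. Their levels could thus not be told from that of silent genes, and the list's median includes them. CDH4, at 0.00584, lay within the range of that density. At an unadjusted p below 0.05, 3 of the 18 (CDH4, CDH5 and CDH12) were higher, against 7.45% of all genes tested. CDH2 alone was lower, against 8.02%. CDH2, or N-cadherin, had by far the most counts, 12662 and 14695 in WT and 9491 and 9377 in T4A, with a log2 fold change of −0.25 (edgeR adjusted p = 0.290). CDH8 had 2690 and 3090 counts in WT and 2322 and 2060 in T4A and a log2 fold change of −0.11. CDH3 and CDH22 had log2 fold changes of 0.19 and 0.39. The catenins, which link classical cadherins to actin, had a median of 0.17 over 7 tested genes. At an unadjusted p below 0.05, 2 of them, CTNNA2 and CTNND2, were higher and 0 were lower, against 7.45% and 8.02% of all genes. CTNNA2, at 0.00290 CPM per kb, lay below the olfactory receptor density, and CTNND2, at 0.00684, and CTNNA3, at 0.00838, lay within its range. CTNNB1, or β-catenin, was at 0.17 and CTNNA1 at −0.18, while JUP was at 0.17 and CTNNA3 at 0.25.

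The 11 genes of the WAVE complex had a median log2 fold change of −0.07, which turned to 0.024 with WT replicate 2 left out, and was −0.14 with WT replicate 1 and −0.039 with T4A replicate 2 left out. In the fit to all libraries CYFIP2 was at −0.11, NCKAP1 at −0.07, ABI1 at 0.08 and WASF2 at −0.11. At an unadjusted p below 0.05 none was higher, against 7.45% of all genes, and 1, CYFIP1, was lower, against 8.02%. The 7 cytoplasmic partners and proteases of protocadherins had a median of −0.08, which was −0.17 and −0.020 with WT replicates 1 and 2 left out in turn, and −0.0061 and −0.027 with T4A replicates 1 and 2 left out. At an unadjusted p below 0.05 none was higher, against 7.45% of all genes, and 2 were lower, against 8.02%. PPP1CC and PPP1CB, catalytic subunits of PP1, were at 0.20 and 0.16, SET was at 0.01, and ADAM10, a protease that cleaves cadherins at the cell surface, was at −0.08.

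**Figure D4:**
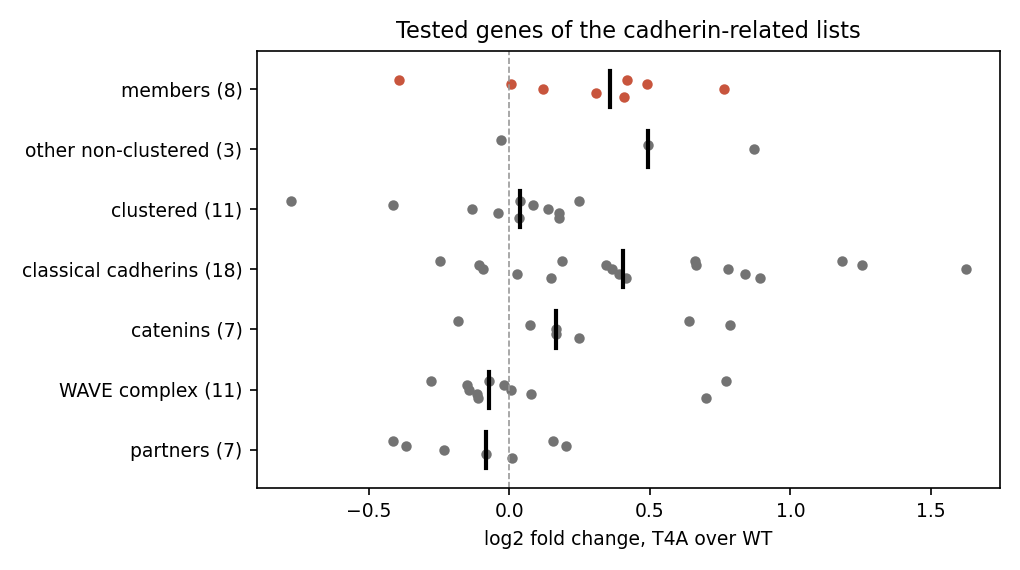
Log2 fold change of T4A over WT for each tested gene (points) of the members, in red, and of the related lists, in grey, with the number tested in brackets and the list's median as a black bar. The median is 0.36 for the members, 0.40 for the classical cadherins and 0.17 for the catenins. Those of the clustered genes and the WAVE complex, near 0, change sign when single libraries are left out. Several classical cadherins, PCDH11X, and CTNNA2 among the catenins, averaged below the olfactory receptor density.

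For PCDH9, the member with the most counts, the 3 protein-coding genes with the most similar levels per length over the 4 libraries were APCDD1, PHLDB2 and FNDC7. Their Euclidean distances from it in log2 CPM per kb were 0.205, 0.231 and 0.236. APCDD1 encodes a membrane inhibitor of Wnt signaling, and PHLDB2 a protein that anchors microtubules at the cell cortex. Over 4 libraries a correlation was not computed.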

How the data were processed

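TT-seq libraries of HEK293 cells (2 WT, 2 T4A, grouped by their titles) were analysed from the deposited table of raw counts per gene. Its headers list 60708 genes with coordinates, and the listed length equals the span for 100% of genes, so introns were counted. The submitters' processing notes name GRCh38, FastQC, cutadapt 4.6, STAR 2.7.11b, Picard and deepTools 3.5.6. The counting version and strand setting are not given in the sources used here. Of the genes with 1 to 20 counts in a library, 82.1% to 86.2% had an even count, so a fragment may have been counted as 2 reads. Gene names for 58700 genes were taken by stable identifier from an annotation lifted to another build.

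Counts were tested with edgeR 4.0.16 in R 4.3.3 (TMM, default filter, quasi-likelihood F test, Benjamini-Hochberg over all 23321 genes tested), and the fit was tested on simulated data. Standard errors were derived from the F statistic. Alternatives were DESeq2 1.42.0, other scalings and filters, replicate blocks, removal of the length trend, halved counts and omission of each library. Genes named were the members, the listed related genes (the 4 with the most counts in a list, and any called), POLR2A and genes overlapping a member. TBC1D19, SEL1L3, KLHL1, DACH1, CYFIP1, RBFOX3 and the genes named with a single setting were chosen after their values were seen. So were the cadherins and catenins named for a low level or for an unadjusted p. Members and lists were chosen with earlier results of these data known.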

Additional observations from a re-analysis of the deposited data

How the results depend on the processing

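No member was called under any of the 12 alternatives that kept all libraries, and apart from PCDH17 each member tested kept its direction in them. In these PCDH7 ranged from −0.42 to −0.34 on the log2 scale, PCDH9 from 0.37 to 0.47, PCDH10 from 0.28 to 0.36 and PCDH19 from 0.47 to 0.54. Genes called numbered 1 in the reported fit, 99 by DESeq2, 65 with no filter on low counts, 2 with the length trend removed and 0 with both that and the replicate block. Deviations from the group mean correlated at −0.12 between libraries with the same replicate number. With 2 libraries per group both pairs must give the same value, so it cannot settle whether the replicate numbers pair the samples. With the replicate block 433 genes were called, among them 0 members and 1 listed gene, CDH12. A crossed replicate block, added after seeing the data, called 63 genes and 0 members. In it PCDH9 had an edgeR adjusted p of 0.0387 but a log2 fold change of only 0.42. Halved counts, also added, called 1 gene and left 7 members tested.

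PCDH17, at 0.0063 in the reported fit, turned to −0.0033 by DESeq2, −0.022 with no filter, −0.20 with the replicate block, −0.0094 with the length trend removed, −0.21 with both and −0.14 with the crossed block, and the cause was not tested. It had 2 to 18 counts in a library. Leaving out 1 library at a time gave 0 (without WT replicate 2), 3 (without WT replicate 1), 195 (without T4A replicate 1) and 2500 called genes (without T4A replicate 2), 0 to 1 called members and 0 to 8 called listed genes. Over these omissions PCDH17 ranged from −2.27 to 1.09, PCDH1 from −0.12 (without T4A replicate 2) to 0.32, PCDH8 from 0.43 to 1.03, PCDH18 from 0.23 to 0.58, PCDH9 from 0.25 to 0.58, PCDH10 from 0.21 to 0.38, PCDH7 from −0.51 to −0.30, PCDH19 from 0.35 to 0.61 and the members' median from 0.24 to 0.46.

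Per kb of exonic length the order of levels was PCDH10 at 10.1 CPM, PCDH7 at 8.26, PCDH9 at 4.31, PCDH19 at 2.80, PCDH18 at 0.881, PCDH1 at 0.238, PCDH8 at 0.126 and PCDH17 at 0.0355. This follows from dividing by exons alone while introns were counted. With 2 libraries a group, the differences of PCDH7, PCDH9, PCDH10 and PCDH19 did not pass the adjusted threshold in this fit, and PCDH1, PCDH8 and PCDH17 had at most 58 counts in a library.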
